A study of Rattus norvegicus with 50 samples.

Results

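The genes described here were Grin1, Grin2a and Grin2b, which encode the main subunits of the NMDA receptor in the forebrain. They were taken as 3 of the 29516 rows of the expression tables by their Ensembl identifiers, ENSRNOG00000011726 for Grin1, ENSRNOG00000033942 for Grin2a and ENSRNOG00000008766 for Grin2b, together with the log2 ratio of the Grin2a row to the Grin2b row in each library. The pairing of these identifiers with the symbols was given with the selection. The tables hold identifiers only, and the reference table used here lists the 3 symbols without Ensembl identifiers, so the pairing could not be checked. All 3 rows passed the filter on low values, a mean of at least 0.5 FPKM over all libraries, which 14779 rows passed. FPKM, the unit of the tables, is a read count divided by transcript length and library size. Levels set side by side between genes therefore rest on the transcript lengths used, and the annotation behind them is not given. Between libraries the values were scaled further for the tests, as described below.

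NMDA receptors are ion channels opened by glutamate that admit calcium only when the membrane is also depolarised. Each channel is built around GluN1, the obligatory subunit encoded by Grin1, combined with GluN2 subunits such as GluN2A (Grin2a) and GluN2B (Grin2b). In rodent forebrain GluN2B is abundant early in life and GluN2A is added as synapses mature. Receptors with GluN2A carry currents that decay faster, and the exchange of these subunits is a classic marker of cortical maturation.

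The libraries were made from medial prefrontal cortex of rats of the Wistar strain, wild-type (WT) or knockout (KO) for SERT, the transporter that clears serotonin from the extracellular space. Tissue was taken on postnatal days 8, 14, 21, 35 and 70, with 5 libraries in each of the 10 groups, 50 in all. The wild-type and knockout groups at each age thus differed by label in the SERT genotype and in the numbers of their titles. The labels name no treatment. The labels do not say how the knockout was made, the sex of the animals, or whether each library of a group is a separate animal. The p-values therefore measure the spread between libraries, which may be technical. Library titles carry a pair of numbers (25-2, for example), which are used below as names. Up to 3 libraries of a group share the first number, its meaning is not explained in the labels, and each group holds 3 different ones. No first number is shared between groups, and the numbers run in blocks by age. The part of what they stand for in differences between genotypes or ages therefore cannot be told apart. Over the 21 pairs of libraries that share it, the median absolute log2 difference of Grin2b was 0.0760, against 0.147 over the 79 other pairs within groups. For Grin2a these medians were 0.146 and 0.188, for Grin1 0.156 and 0.113, and for the log2 ratio of Grin2a to Grin2b 0.145 and 0.125. The SDs and p-values below treat the 5 libraries of a group as independent of each other, which this sharing leaves untested.

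Sequencing depth, known only as a ratio, ran from 0.397 to 1.42 of the median library, and the 50 highest rows held between 48.8% and 82.3% of a library's summed FPKM. Pearson correlations between libraries of a group, over rows, lay between 0.880 and 0.982, and 0 pairs of libraries held identical values. Levels below are FPKM as deposited. Changes and tests used values divided by a factor per library (0.829 to 1.20), as log2(FPKM + 0.5), a scale that understates changes of low values. Against this scaling, the deposited values shifted the median row by -0.15 (log2) for day 8 to 70 in WT, by -0.11 in KO, and by -0.10 for KO against WT at both day 8 and day 14. Because neither the transporter gene nor markers of neurons and glia could be found by symbol, the genotype and tissue labels were not analysed here against their genes. In whole tissue, fewer cells of a type and less RNA per cell cannot be told apart.

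All 3 genes rose between day 8 and day 14 in both genotypes, and they did so by very different amounts. Mean FPKM rose 4.08-fold in WT and 4.62-fold in KO for Grin2a, 1.89-fold and 1.97-fold for Grin1, and 1.26-fold and 1.31-fold for Grin2b. Grin2a and Grin1 rose again from day 14 to 21, after which none of the 3 passed the test between consecutive ages. A difference between genotypes passed the test for none of the 3 genes at any age.

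Grin1, whose product is required in every NMDA receptor, stood in WT at day 8 at 16.7, 13.7, 18.3, 12.6 and 15.7 FPKM in libraries 25-2, 25-3, 26-1, 27-2 and 27-4. At day 14 the WT libraries 19-1, 20-2, 20-4, 20-6 and 21-3 read 31.7, 32.7, 22.3, 31.2 and 27.6 FPKM. The groups did not overlap, the lowest day 14 library (20-4) lying above the highest day 8 library (26-1). The WT means on days 8, 14, 21, 35 and 70 were 15.4 ± 2.30, 29.1 ± 4.26, 33.8 ± 0.719, 30.6 ± 1.09 and 29.7 ± 4.02 FPKM (SD, n = 5). In the order of these means (day 8, 14, 70, 35 and 21), neighbours overlapped except days 8 and 14 and days 35 and 21. Divided by the library factors, days 35 and 21 overlapped too. The day 35 library 8-4 then read 36.7 FPKM and the lowest day 21 library, 14-1, read 32.45.

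In KO, Grin1 read 14.1, 14.4, 14.3, 14.3 and 11.9 FPKM at day 8 in libraries 28-1, 29-4, 29-5, 30-1 and 30-5. The KO means in the same order of ages were 13.8 ± 1.09, 27.2 ± 4.56, 36.2 ± 3.33, 31.3 ± 2.83 and 30.4 ± 3.92 FPKM (SD, n = 5). The day 14 group was spread by library 24-2, at 35.0 FPKM against at most 27.0 in the other libraries, and all of it lay above day 8. The means had the same order as in WT, with overlap of all neighbours above day 8. From day 8 to day 70 the Grin1 mean rose 1.93-fold in WT and 2.21-fold in KO.

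Grin2a, whose product marks the later form of the receptor, was the lowest of the 3 at day 8. In WT libraries 25-2, 25-3, 26-1, 27-2 and 27-4 it read 3.90, 3.75, 5.47, 4.50 and 4.18 FPKM. In KO libraries 28-1, 29-4, 29-5, 30-1 and 30-5 it read 3.59, 2.48, 3.34, 3.87 and 3.46 FPKM. As deposited, the genotypes overlapped at day 8 through the KO library 30-1 alone, which lay above the lowest WT library, 25-3. Divided by the library factors they overlapped more, with KO libraries 30-1 and 30-5 at 3.64 and 3.90 FPKM and WT libraries 25-2, 25-3 and 27-4 at 3.51, 3.45 and 3.77.

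By day 14 the WT values of Grin2a were 17.1, 19.9, 17.3, 17.3 and 17.4 FPKM in libraries 19-1, 20-2, 20-4, 20-6 and 21-3. The KO values were 14.1, 13.6, 16.2, 14.2 and 19.2 FPKM in libraries 22-1, 22-3, 23-3, 24-1 and 24-2. Every day 14 library lay above every day 8 library. The libraries of later ages lay above those of day 14 in their genotype, except the WT day 35 library 11-4, at 19.6 FPKM, which lay below the WT day 14 library 20-2. Over days 8, 14, 21, 35 and 70 the WT means of Grin2a were 4.36 ± 0.685, 17.8 ± 1.17, 24.1 ± 2.33, 24.3 ± 2.97 and 23.9 ± 2.52 FPKM (SD, n = 5). The KO means were 3.35 ± 0.523, 15.5 ± 2.30, 24.7 ± 2.58, 23.8 ± 2.29 and 24.7 ± 2.55 FPKM. Days 21, 35 and 70 overlapped in both genotypes, so their order was not resolved. The rise of the mean from day 8 to day 70 was 5.48-fold in WT and 7.37-fold in KO.

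Grin2b, whose product dominates the early receptor, was the highest of the 3 at every age. At day 8 it read 45.2, 44.5, 50.3, 45.3 and 45.5 FPKM in WT libraries 25-2, 25-3, 26-1, 27-2 and 27-4. In KO libraries 28-1, 29-4, 29-5, 30-1 and 30-5 it read 41.4, 37.5, 43.0, 40.8 and 42.2 FPKM. As deposited, these genotypes did not overlap at day 8. The order depended on the scaling: divided by the library factors, the KO libraries spanned 35.4 to 47.6 FPKM and reached above the highest WT library, at 45.7.

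Across ages, Grin2b moved within a narrow band. Its WT means on days 8, 14, 21, 35 and 70 were 46.1 ± 2.36, 58.1 ± 6.91, 58.4 ± 4.29, 49.4 ± 4.79 and 48.0 ± 4.88 FPKM (SD, n = 5). Its KO means were 41.0 ± 2.11, 53.8 ± 3.50, 56.8 ± 4.10, 51.0 ± 2.54 and 47.3 ± 4.64 FPKM. In both genotypes the order from lowest to highest mean was day 8, 70, 35, 14 and 21, and every neighbouring pair in that order overlapped.

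**Figure D1:**
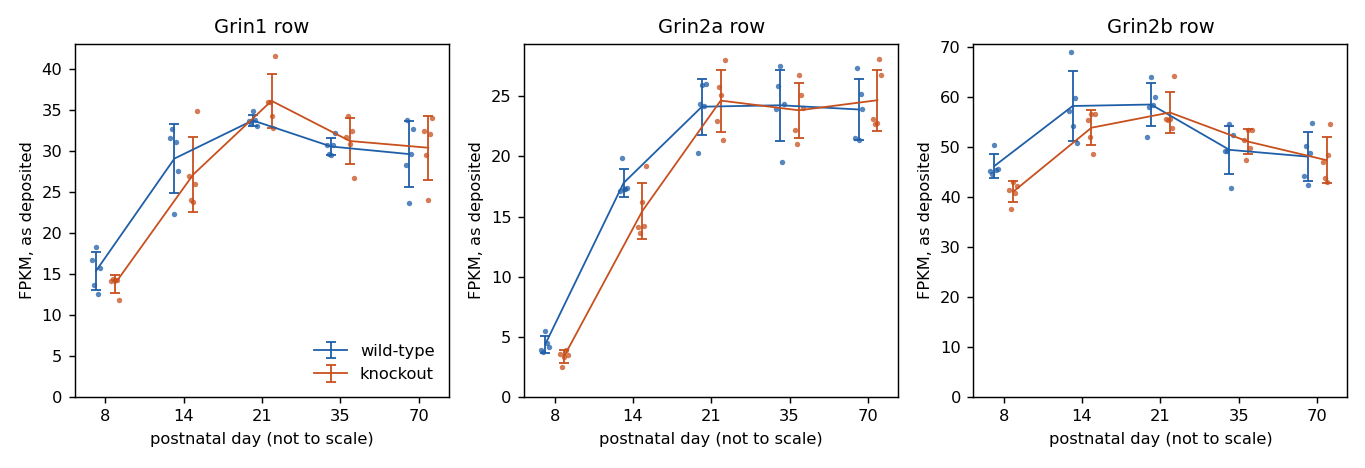
FPKM as deposited (vertical axis, from 0) of Grin1, Grin2a and Grin2b against postnatal age in days (not to scale), with a point for each library, the group mean joined by a line and the SD as a bar (n = 5 per genotype and age). Grin2a climbs from 4.36 to 24.1 FPKM in WT between days 8 and 21 with means of 24.3 and 23.9 FPKM after that, while Grin2b is highest throughout and has its highest mean, 58.4 FPKM, at day 21.

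The levels can also be placed among the 14779 tested rows. At day 8, 8909 rows had a higher mean than Grin2a in WT and 9629 in KO, against 2044 and 1832 at day 70. For Grin1, 3680 rows (WT) and 3745 rows (KO) were higher at day 8, and 1612 and 1470 at day 70. Grin2b was already among the abundant transcripts at day 8, with 1150 rows above it in WT and 1121 in KO. At day 70, 927 (WT) and 862 (KO) rows lay above it, so the place of Grin2b moved far less than that of Grin2a.

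The limma model put sizes on these changes, with p-values adjusted by Benjamini-Hochberg over all tested rows. From day 8 to 14 in WT, Grin1 rose by 0.93 ± 0.10 (log2, SE; limma adjusted p = 1.24e-10) and Grin2b by 0.36 ± 0.09 (adjusted p = 0.00169). Grin2a rose by 1.94 ± 0.13 (adjusted p = 2.97e-16), the steepest of the 3. In KO the same interval gave 0.98 for Grin1 (adjusted p = 2.94e-11), 2.08 for Grin2a (adjusted p = 2.65e-17) and 0.42 for Grin2b (adjusted p = 0.000240). All 3 of 3 rows were thus called higher, where 17.4% of all rows were called higher in WT and 18.7% in KO. The median of the 3 was 0.93 in WT and 0.98 in KO, and the median of all rows was -0.02 and 0.00.

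The rise of Grin2a in this week was among the largest in the tables. Only 13 rows in WT and 23 in KO rose more between days 8 and 14. For Grin1, 97.6% of rows in WT and 97.1% in KO had a lower change. For Grin2b the shares were 84.9% and 85.0%, so its rise was of a size that many rows reached.

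From day 14 to 21, 2 of the 3 genes rose. Grin2a gained 0.52 in WT (limma adjusted p = 0.00209) and 0.70 in KO (adjusted p = 4.84e-05). Grin1 gained 0.32 in WT (adjusted p = 0.0124) and 0.45 in KO (adjusted p = 0.000367). Grin2b did not pass the test, with 0.11 in WT (adjusted p = 0.457) and 0.12 in KO (adjusted p = 0.420). Called higher in this interval were 10.3% of all rows in WT and 10.7% in KO. The WT call for Grin1 was lost with values as deposited (0.22, adjusted p = 0.135) and without the lowest day 14 library, 20-4 (0.26, adjusted p = 0.0621).

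After day 21, 0 of the 3 genes passed the test between consecutive ages. From day 21 to 35 the log2 differences in WT were -0.13 for Grin1, 0.02 for Grin2a and -0.23 for Grin2b, and in KO -0.24, -0.08 and -0.18. From day 35 to 70 they were -0.04, -0.01 and -0.03 in WT and 0.03, 0.12 and -0.04 in KO. The smallest adjusted p of limma among these 12 differences was 0.160. Few rows were called between these consecutive ages: 3.86% in either direction from day 21 to 35 in WT and 4.49% in KO. From day 35 to 70 the shares were 0.338% and 0.304%. A missing call is not a lack of change: from day 21 to 35, 2315 rows in WT and 2679 in KO had an unadjusted limma p under 0.05.

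The lower Grin2b means after day 21 were compared over the whole span from day 21 to 70, a contrast added after the values were seen. Grin2b changed by -0.26 in WT (limma adjusted p = 0.0558) and by -0.22 in KO (adjusted p = 0.117), short of the threshold in both. With values as deposited the fall passed in WT (-0.28, adjusted p = 0.0155) and in KO (-0.26, adjusted p = 0.0246), and in WT it also passed without the day 21 library 14-1 (-0.31, adjusted p = 0.0259). With array weights it also passed, at -0.25 in WT (limma adjusted p = 0.012) and -0.23 in KO (adjusted p = 0.0187). Some other settings made it smaller. With quantile normalization it was -0.22 in WT (limma adjusted p = 0.288) and -0.14 in KO (adjusted p = 0.556). Without the day 70 library 2-2 it was -0.20 in WT (adjusted p = 0.185). Grin1 (-0.17 in WT, -0.21 in KO) and Grin2a (0.01 and 0.04) did not pass. Called lower over this span were 5.95% of rows in WT and 5.99% in KO, and 11.3% were called in either direction in each genotype.

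Over the whole period from day 8 to 70, all 3 rows were called higher in both genotypes, where 27.8% of all rows in WT and 29.1% in KO were. Grin2a rose by 2.48 ± 0.13 in WT (log2, SE; limma adjusted p = 6.62e-21) and 2.83 ± 0.13 in KO (adjusted p = 6.27e-23). Of the tested rows, 66 in WT and 39 in KO rose more on this scale, which holds down the rises of low rows. Grin1 rose by 1.08 in WT (adjusted p = 3.09e-13) and 1.22 in KO (adjusted p = 6.31e-15). Grin2b rose by 0.32 in KO (adjusted p = 0.00288). In WT its rise of 0.21 was at the threshold (adjusted p = 0.0492) and the call was lost in 13 of 19 alternatives, among them values as deposited (0.05, adjusted p = 0.597) and the omission of any one of several day 8 or day 70 libraries.

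**Figure D2:**
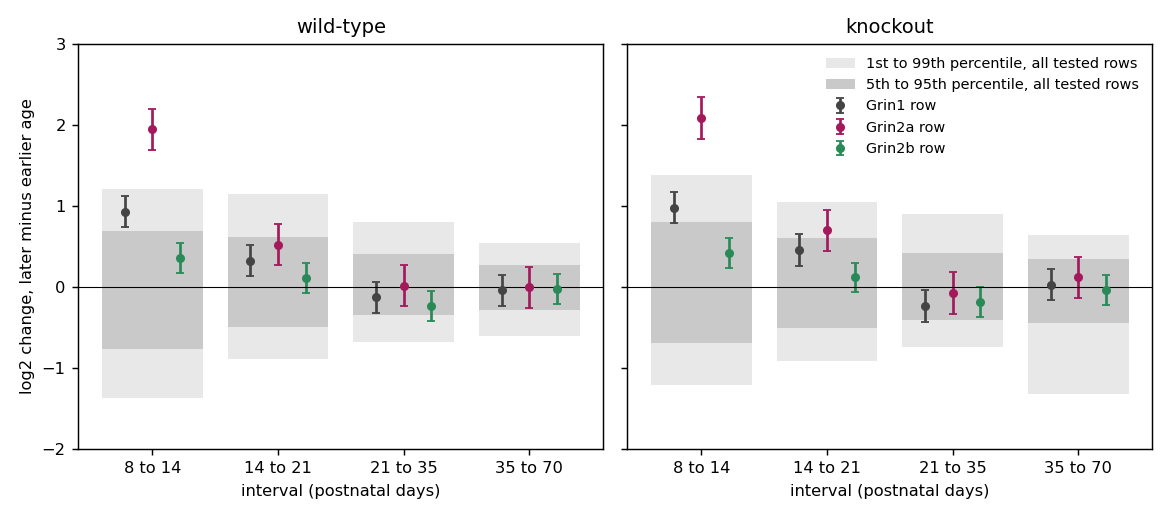
Log2 change between consecutive ages (vertical axis) in WT and KO for the 3 genes, as limma estimates with their 95% intervals, against light and dark grey bars that span the 1st to 99th and the 5th to 95th percentile of all 14779 tested rows. In the first interval Grin2a lies above both bars in both genotypes, at 1.94 and 2.08, and in the intervals after day 21 all 3 estimates lie inside the light bar.

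The balance of the GluN2 subunit genes was read from the log2 ratio of Grin2a to Grin2b within each library, which does not depend on how libraries are scaled. At day 8 the WT ratios were -3.53, -3.57, -3.20, -3.33 and -3.44, and the KO ratios -3.53, -3.92, -3.69, -3.40 and -3.61, in the library order given above. At day 14 the WT libraries read -1.74, -1.79, -1.65, -1.79 and -1.55, and the KO libraries -1.97, -1.93, -1.80, -1.77 and -1.56. No day 14 library overlapped with day 8 in its genotype, and the KO library 24-2, which was also high in Grin1, had the highest KO ratio of its age.

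The mean log2 ratios in WT on days 8, 14, 21, 35 and 70 were -3.42 ± 0.151, -1.70 ± 0.106, -1.28 ± 0.0586, -1.03 ± 0.0755 and -1.01 ± 0.118 (SD, n = 5). In KO they were -3.63 ± 0.194, -1.81 ± 0.162, -1.21 ± 0.0941, -1.10 ± 0.105 and -0.94 ± 0.101. On the linear scale, Grin2b exceeded Grin2a 10.7-fold in WT and 12.5-fold in KO at day 8, and 2.01-fold and 1.92-fold at day 70. Grin2a made up 8.60% ± 0.837 of the summed FPKM of both genes in WT at day 8 and 33.3% ± 1.80 at day 70. The corresponding KO shares were 7.52% ± 0.913 and 34.3% ± 1.59. At the transcript level, in FPKM, Grin2b still exceeded Grin2a in every group mean, including day 70.

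Consecutive changes of the ratio were tested by two-sided exact permutation of libraries, with Benjamini-Hochberg adjustment over 15 comparisons. With 5 against 5 libraries the smallest p is 0.00794, which adjusted to 0.0170 here. In WT the ratio rose by 1.71 (95% interval 1.50 to 1.91) from day 8 to 14, by 0.42 (0.29 to 0.54) from day 14 to 21 and by 0.25 (0.15 to 0.35) from day 21 to 35, each with no overlap of the groups and the smallest exact p. With libraries averaged by first title number, 3 against 3, the adjusted p was 0.188 for each called change of the ratio in either genotype, and its size was nearly the same. Each of these had the smallest exact p that 3 against 3 allows, which cannot pass the threshold, so this setting cannot decide. From day 35 to 70 the WT ratio moved by 0.02 (-0.13 to 0.16, exact p = 0.746). The first of these intervals held 71.1% of the whole WT change from day 8 to 70, and the next intervals 17.6%, 10.3% and 0.921%.

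In KO the ratio rose by 1.82 (1.58 to 2.12) from day 8 to 14 and by 0.60 (0.41 to 0.79) from day 14 to 21, again each at the smallest exact p. From day 21 to 35 the difference was 0.11 (-0.05 to 0.27, exact p = 0.151, adjusted 0.226), and the groups overlapped. From day 35 to 70 it was 0.16 (0.00 to 0.33, exact p = 0.0476, adjusted 0.0893). The intervals held 67.7%, 22.3%, 3.97% and 6.03% of the KO change. Over the whole period the ratio rose by 2.41 (2.20 to 2.60) in WT and by 2.69 (2.48 to 2.92) in KO, both at the smallest exact p. From day 21 to 70, a span added after the values were seen, it rose by 0.27 in WT and by 0.27 in KO, each with an unadjusted exact p of 0.00794.

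The levels of the GluN2 genes relative to Grin1 are given here as a description with no test. Their absolute size rests on the transcript lengths behind the FPKM values, which are not given. The Grin2b level was 3.04 ± 0.375 times the Grin1 level (SD, n = 5) in WT at day 8 and 1.63 ± 0.119 times at day 70. In KO it was 2.99 ± 0.352 times at day 8 and 1.56 ± 0.139 times at day 70. Grin2a relative to Grin1 went from 0.286 to 0.811 in WT and from 0.244 to 0.818 in KO. The sum of Grin2a and Grin2b per Grin1 went from 3.33 to 2.44 in WT and from 3.24 to 2.38 in KO. The direction of this sum also rests on the transcript lengths, since it adds the FPKM of different genes. The Grin2b mean itself did not fall from day 8 to 70 (46.1 to 48.0 FPKM in WT, 41.0 to 47.3 in KO). Over this span the Grin1 mean rose 1.93-fold in WT and 2.21-fold in KO.

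**Figure D3:**
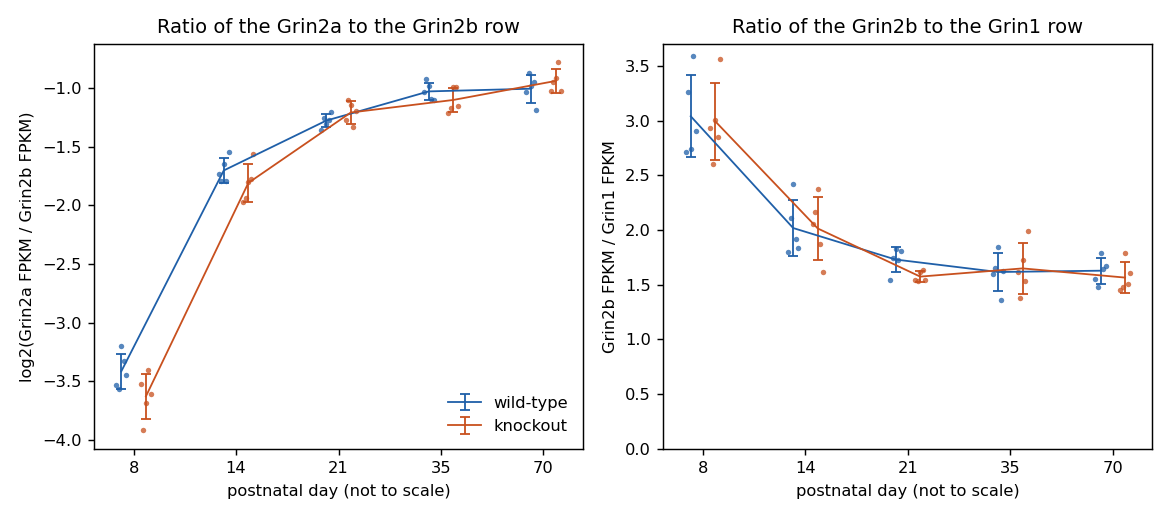
Ratios between the subunit genes within each library (vertical axes as labelled) against postnatal age in days (not to scale), with a point per library and the group mean with SD (n = 5) for WT and KO. The log2 ratio of Grin2a to Grin2b rises from -3.42 to -1.01 in WT and from -3.63 to -0.94 in KO, while the mean of Grin2b per Grin1 goes from 3.04 to 1.63 and from 2.99 to 1.56.

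The question of the design, whether lack of SERT changed expression at each age, was put to the 3 genes directly. At day 8 the KO minus WT difference of Grin2a was -0.24 (log2, 95% interval -0.49 to 0.02, limma adjusted p = 0.562, unadjusted 0.0685). Grin1 differed by -0.04 (-0.23 to 0.16, adjusted p = 0.927) and Grin2b by -0.06 (-0.24 to 0.13, adjusted p = 0.862). With values as deposited the day 8 differences were -0.34 for Grin2a (adjusted p = 0.217), -0.14 for Grin1 (adjusted p = 0.568) and -0.17 for Grin2b (adjusted p = 0.431), of which the shift of the median row made up -0.10. Without the KO library 29-4 the Grin2a difference was -0.14 (limma adjusted p = 0.719), and without the WT library 26-1 it was -0.16 (adjusted p = 0.757). None of the 3 rows was called at day 8, where 0.244% of all rows were. Library factors at day 8 ran from 1.09 to 1.12 in WT and from 0.887 to 1.13 in KO, and their part in these differences was not tested beyond the comparison of scalings.

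At the later ages the intervals were as wide and lay across 0. The Grin2a differences on days 14, 21, 35 and 70 were -0.10 (-0.35 to 0.16), 0.08, -0.01 and 0.11 (-0.14 to 0.37). For Grin1 the differences were 0.01, 0.14 (-0.05 to 0.34), 0.04 and 0.11 at these ages, and for Grin2b 0.00, 0.01, 0.06 and 0.05. All of their limma adjusted p-values lay between 0.999 and 1.00. As deposited, the day 14 differences were -0.21 for Grin2a (limma adjusted p = 0.685), -0.10 for Grin1 (adjusted p = 0.843) and -0.11 for Grin2b (adjusted p = 0.757), so Grin1 and Grin2b changed sign with the scaling. Grin2b also changed sign as deposited at days 21 (-0.04) and 70 (-0.02). The day 70 difference of Grin2a was 0.05 without the KO library 6-1 and 0.05 without the WT library 2-2. Calls were as rare among all rows: 0.00677% at day 14 and 0% at days 21, 35 and 70. An unadjusted limma p under 0.05 was reached by 436, 377 and 354 rows at days 21, 35 and 70. Without any genotype difference, that cut-off would on average let through more of the 14779 rows. These numbers are therefore no sign of missed differences.

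Averaged over the ages, KO minus WT was 0.05 for Grin1 (95% interval -0.03 to 0.14, limma adjusted p = 0.942), -0.03 for Grin2a (-0.15 to 0.08, adjusted p = 0.989) and 0.01 for Grin2b (-0.07 to 0.10, adjusted p = 0.991). At this average 0.0338% of rows were called. These averages moved with the scaling: as deposited they were -0.02 for Grin1 (limma adjusted p = 0.865), -0.10 for Grin2a (adjusted p = 0.319) and -0.06 for Grin2b (adjusted p = 0.410), so the sign turned for Grin1 and Grin2b and the intervals above hold for the scaled values.

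**Figure D4:**
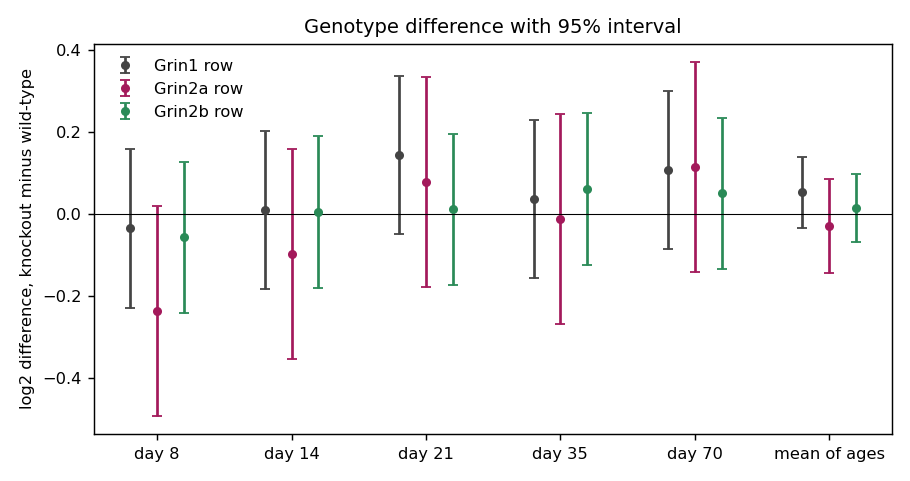
KO minus WT difference in log2 units (vertical axis, 0 marked by a line) at each age and averaged over ages for the 3 genes, as limma estimates with 95% intervals, 5 libraries per group. Every interval includes 0, and the estimate farthest from 0 is that of Grin2a at day 8, -0.24.

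The ratio of Grin2a to Grin2b was compared between genotypes by the same exact test. KO minus WT was -0.21 at day 8 (95% interval -0.48 to 0.04, exact p = 0.103, adjusted 0.172), -0.11 at day 14 (exact p = 0.262) and 0.07 at day 21 (exact p = 0.198). It was -0.07 at day 35 (exact p = 0.190) and 0.07 at day 70 (exact p = 0.365). The KO ratio was thus the lower at days 8, 14 and 35 and the higher at days 21 and 70, and the exact test was passed at none of these ages.

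Whether the course with age differed between genotypes was tested as an interaction. The limma F test over the ages gave unadjusted p-values of 0.683 for Grin1, 0.304 for Grin2a and 0.903 for Grin2b, each 1.00 after adjustment, and called 0.00677% of all rows. The rise of Grin2a from day 8 to 70 exceeded that in WT by 0.35 ± 0.18 in KO (log2, SE; interval -0.01 to 0.71, limma unadjusted p = 0.0565, adjusted 0.909). For the log2 ratio of Grin2a to Grin2b the excess in KO was 0.28 (exact permutation p = 0.0447, adjusted 0.151 over 5 such differences). The excess was 0.11 from day 8 to 14 (exact p = 0.503), 0.18 from day 14 to 21 (exact p = 0.0904), -0.14 from day 21 to 35 (exact p = 0.0727) and 0.14 from day 35 to 70 (exact p = 0.130). A genotype difference in the timing of the subunit change was therefore not established at the threshold of 0.05 after adjustment.

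The 3 genes also varied together among the libraries of a group. After each group's mean was removed, log2 levels of Grin2a and Grin2b across the 50 libraries correlated with Pearson r = 0.841 and Spearman rho = 0.796 (permutation within groups, p = 1e-05, the smallest that 100000 permutations give, adjusted 3e-05 over 3 pairs). Grin1 followed Grin2a with r = 0.510 and rho = 0.472 (permutation p = 0.00087) and Grin2b with r = 0.474 and rho = 0.507 (permutation p = 0.00073), both adjusted to 0.00087. For each pair, the 2 libraries farthest from the median were also left out, by Grin2a for Grin2a with Grin2b and by Grin1 otherwise. Then r was 0.786, 0.495 and 0.496 in the same order. The WT day 35 library 11-4 had the lowest value of both Grin2a and Grin2b relative to its group, at -0.50 and -0.44.

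Genes of a library divided by a common factor share its error, so the same correlations were taken on the deposited values, which in turn share what the factor removes. The correlation of Grin2a with Grin2b was 0.715 as deposited, and those of Grin1 with Grin2a and Grin2b were 0.381 and 0.472 (permutation within groups, adjusted p = 3e-05, 0.0126 and 0.00403). How many other rows vary together as closely within groups was not computed, so whether this is particular to these genes was not tested. The permutations also treat libraries that share a first title number as independent.

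**Figure D5:**
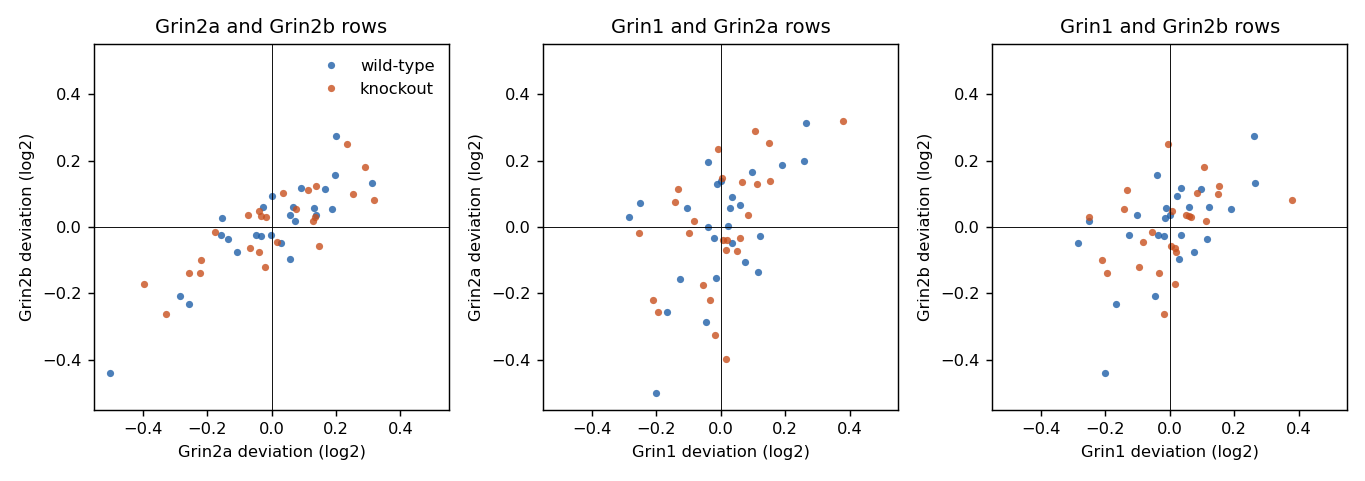
Deviation of each library from its group mean (log2 scaled FPKM) for each pair of the 3 genes, 1 point per library, 50 libraries, WT and KO marked. Grin2a and Grin2b deviate together most closely, with r = 0.841, and library 11-4 of WT day 35 lies at the low end of both.

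The rows most like each gene were sought by Pearson r of log2 scaled levels over the 50 libraries among 13210 rows with a mean of at least 1 FPKM, as a description, since all rows share these libraries and their age groups. The row nearest to Grin2a was ENSRNOG00000024374, with r = 0.988, and 508 rows reached 0.9. Its mean went from 7.37 FPKM at day 8 to 18.2, 22.9, 23.2 and 22.3 in WT and from 5.56 to 15.5, 21.6, 21.9 and 22.6 in KO. From day 8 to 14 this was a 2.46-fold rise of the mean in WT and 2.78-fold in KO, less steep than that of Grin2a. The nearest row to Grin1 had r = 0.985, and 320 rows reached 0.9. By r over the 10 group means, which leaves out the spread between libraries, 1761 rows reached 0.9 with Grin2a and 1409 with Grin1.

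For Grin2b, whose range over age was narrower, the nearest row over the 50 libraries was ENSRNOG00000009341, with r = 0.935, and 4 rows reached 0.9. Over the 10 group means 256 rows reached 0.9, the largest r being 0.994. The row ENSRNOG00000009341, far lower in level than Grin2b, had means of 1.71, 3.09, 3.36, 2.26 and 2.07 FPKM across the ages in WT. In KO its means were 1.35, 3.04, 3.59, 2.50 and 2.31 FPKM. Its highest mean was also at day 21 in both genotypes. Among the genes described here, r over the 50 libraries was 0.959 for Grin1 and Grin2a, 0.758 for Grin1 and Grin2b, and 0.733 for Grin2a and Grin2b.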

How the data were processed

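RNA from medial prefrontal cortex was depleted of ribosomal RNA, fragmented, amplified by 10 cycles of PCR and sequenced as single-end 50 bp reads, per the labels' protocols. The protocol names gsnap and the rn4 assembly. By contrast, BWA 0.6.1 stands beside bedtools, Cufflinks and rn4 in the submitters' processing notes. The aligner behind the tables, the annotation release and the treatment of strand are not given in the sources used here. Values deposited by the authors are FPKM, in a WT and a KO table with the same 29516 identifiers, and 0 columns had no sample. No coordinates or sequences are given, since the build differs from the reference (GRCr8, RefSeq), in which 0 Ensembl identifiers are listed.

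A scaling factor per library was computed as the median, over 15296 rows, of its ratios to the rows' geometric means, and values were divided by it. Rows with a mean of at least 0.5 FPKM (14779) were tested as log2(FPKM + 0.5) with limma 3.58.1 in R 4.3.3 (10 groups, 40 residual degrees of freedom, trend and robust variance), with calls at 0.05 after Benjamini-Hochberg adjustment. The ratio of Grin2a to Grin2b was tested by exact permutation in Python 3.11.15 (numpy 2.4.6, pandas 2.3.3, scipy 1.17.1, matplotlib 3.10.9). The limma step was tested on simulated data. The depth ratio compares values of low rows over 4202 rows, and absolute depth is unknown, so no counting intervals are given.

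Groups share no replicate numbers, so libraries were not paired. The genes and lists were chosen with earlier results of these data known. The named rows were the 3 genes and the rows most like them by Pearson r, of which only the nearest to Grin2a and Grin2b is named, because identifiers carry no symbols. The lists of other glutamate receptor and scaffold genes, cell type markers and the SERT gene are by symbol and were not analysed here. Alternatives were the pseudocount (0.1 or 1), no filter, values as deposited, quantile normalization, separate fits, array weights, averaging of libraries that share the first title number (3 such numbers per group), a rank-sum permutation test and each library left out. The span from day 21 to 70 and the omission of the 2 libraries of lowest depth per genotype were added after seeing the data.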

Additional observations from a re-analysis of the deposited data

Results flagged for a closer look

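In 2 of 40 groups tested (the 3 genes and the log2 ratio of Grin2a to Grin2b in 10 groups of 5 libraries), a library stood apart from the others by a gap that was large against the group's range, which about 5% of such groups do by chance. Both concern scaled Grin2b. In WT at day 8, library 26-1 read 45.7 FPKM and the nearest other library 41.0, a gap of 0.867 of the range. This library was also the highest of its group in Grin1 and Grin2a. In WT at day 70, library 2-2 read 41.0 FPKM and the nearest other library 49.1, a gap of 0.725 of the range. Both groups enter the WT change of Grin2b from day 8 to 70, whose call was kept when either library was left out.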

How the results depend on the processing

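In WT, the rise of Grin2b from day 8 to 70 (0.21) lost its call with no filter (0.21), values as deposited (0.052), quantile normalization (0.28), libraries averaged by first title number (0.19) and without the libraries of lowest depth (0.20), and ranged from 0.18 to 0.27 with single libraries left out. It was lost without each of day 8 libraries 25-2, 25-3, 27-2 and 27-4 and day 70 libraries 2-3, 3-1, 3-3 and 4-1. The rise of Grin1 in WT from day 14 to 21 lost its call as deposited (0.22), with title averages (0.30) and without 20-4 (range 0.26 to 0.35). With array weights Grin2b gained a call from day 21 to 35 in WT (-0.21). Over day 21 to 70 it gained one with array weights in WT (-0.25) and KO (-0.23) and as deposited in WT (-0.28) and KO (-0.26). Quantile normalization gave -0.22 in WT and -0.14 in KO over that span, with no call. With single libraries left out the WT value over that span ran from -0.31, called without 14-1, to -0.20. Averaging by title number leaves 3 against 3 libraries, so every called ratio change missed the threshold (adjusted p = 0.188 for each) while keeping its direction: 1.70, 0.41, 0.22 and 2.34 in WT (day 8 to 14, 14 to 21, 21 to 35, 8 to 70) and 1.80, 0.60 and 2.66 in KO (8 to 14, 14 to 21, 8 to 70). The other called age changes kept their calls, and no genotype or interaction difference gained one under any alternative run. Separate fits give no value for the average over ages or the F test. Depth is known only as a ratio, so counting error could not be set against these differences. No paired analysis was possible because no replicate number is shared between groups.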
